A study of Homo sapiens with 3 samples.

Results

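The epidermal differentiation complex is a block of chromosome 1 in which most genes of the cornified envelope lie side by side. Here it was taken as all protein-coding genes of GRCh38 chromosome 1 from S100A10 (first base 151982915) to S100A1 (first base 153627926), which gave 64 genes of the 58735 in the deposited count table. RNA was sequenced from HaCaT, an immortalised human keratinocyte line with the genotype label WT, in 3 cultures at 24 h. One culture was given carbon black (CB) at 25 µg/mL, another was given the particulate material S1650b at 50 µg/mL, and the control was labelled as exposed to none. Both particles were added in DMEM without serum, and the labels do not say whether the control medium held serum. HaCaT is 1 line, and each group is 1 library, so differences have no replicate check and carry no P value. By its title the series is about DNA damage, oxidative stress and the skin barrier under particles, and the complex holds many barrier genes.

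In skin, keratinocytes leave the basal layer, stop dividing and replace their plasma membrane with the cornified envelope, a shell of proteins that transglutaminases crosslink. Involucrin is laid down early as a scaffold, and loricrin, the small proline-rich (SPRR) proteins and the late cornified envelope (LCE) proteins are added later. The filaggrin family joins an S100-type calcium-binding domain to long repeats, binds keratin filaments or is crosslinked into the envelope, and filaggrin breaks down into the amino acids that keep the surface moist. The S100 genes at both ends of the complex encode small calcium-binding proteins, of which S100A7, S100A8 and S100A9 are secreted as antimicrobial and alarm proteins.

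The promoters of 5 genes are shown because these are the genes of the complex with at least 1 CPM that were at least 2-fold lower than control in a particle library. Each is the 250 bases before the annotated start, 5′ to 3′ on the strand of the gene, from RefSeq on GRCh38.p14, with capitals at letters matching the AP-1 motif TGANTCA or the TATA motif TATAAA. The windows are chr1:152908296-152908545 (plus strand) for IVL, chr1:153357604-153357853 (plus strand) for S100A9, chr1:153391189-153391438 (minus strand) for S100A8, chr1:153460652-153460901 (minus strand) for S100A7, chr1:153545807-153546056 (minus strand) for S100A4.
IVL: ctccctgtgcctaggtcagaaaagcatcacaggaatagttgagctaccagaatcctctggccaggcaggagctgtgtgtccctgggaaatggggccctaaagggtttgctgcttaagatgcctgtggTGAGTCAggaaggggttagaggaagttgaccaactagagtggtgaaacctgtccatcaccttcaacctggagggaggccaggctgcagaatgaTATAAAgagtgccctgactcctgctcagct
S100A9: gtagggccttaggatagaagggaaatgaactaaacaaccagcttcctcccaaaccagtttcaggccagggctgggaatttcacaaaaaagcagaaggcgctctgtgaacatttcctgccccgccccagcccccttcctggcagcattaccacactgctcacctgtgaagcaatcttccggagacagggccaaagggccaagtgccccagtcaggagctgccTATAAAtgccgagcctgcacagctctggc
S100A8: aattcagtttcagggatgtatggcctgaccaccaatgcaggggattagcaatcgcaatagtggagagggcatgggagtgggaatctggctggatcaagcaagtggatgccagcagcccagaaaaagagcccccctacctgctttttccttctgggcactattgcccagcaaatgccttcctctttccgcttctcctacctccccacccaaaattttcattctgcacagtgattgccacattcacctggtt
S100A7: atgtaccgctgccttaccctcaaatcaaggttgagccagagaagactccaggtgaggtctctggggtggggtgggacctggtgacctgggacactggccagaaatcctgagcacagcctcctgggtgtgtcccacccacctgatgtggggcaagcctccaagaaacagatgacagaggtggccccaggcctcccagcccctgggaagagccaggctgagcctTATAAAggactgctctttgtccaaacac
S100A4: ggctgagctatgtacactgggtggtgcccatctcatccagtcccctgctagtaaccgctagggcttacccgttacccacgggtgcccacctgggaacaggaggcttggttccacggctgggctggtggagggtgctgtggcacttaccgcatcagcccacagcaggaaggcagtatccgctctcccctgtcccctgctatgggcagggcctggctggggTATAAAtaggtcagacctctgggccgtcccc
IVL held both motifs, S100A9, S100A7 and S100A4 held TATAAA alone, and S100A8 held neither. The S100A4 and S100A7 windows lie before RefSeq starts that are inside the GENCODE spans of these genes. Among the 58 genes of the complex with a RefSeq promoter, 19 (32.8%) had TGANTCA on either strand in these 250 bases, against 6.6% of all 27305 promoters in the table. TATAAA was present on either strand in 30 of the 58 (51.7%), against 11.1% of all promoters. In 26 of the 58 (44.8%) it began 25 to 35 bases before the start on the strand of the gene, against 2.41% of all promoters. The AHR core GCGTG was found in 9 of the 58 (15.5%), against 31.9% of all promoters, and the KLF core CCACCC in 27 (46.6%), against 30.4%. Among the 17 genes that reached 1 CPM in a library, 5 (29.4%) held the AHR core, near the share of all promoters, and 12 (70.6%) held the KLF core. The genes of each family are related copies and share sequence, so these 58 windows are not independent, and a match is a run of letters and not a shown binding site.

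**Figure D1:**
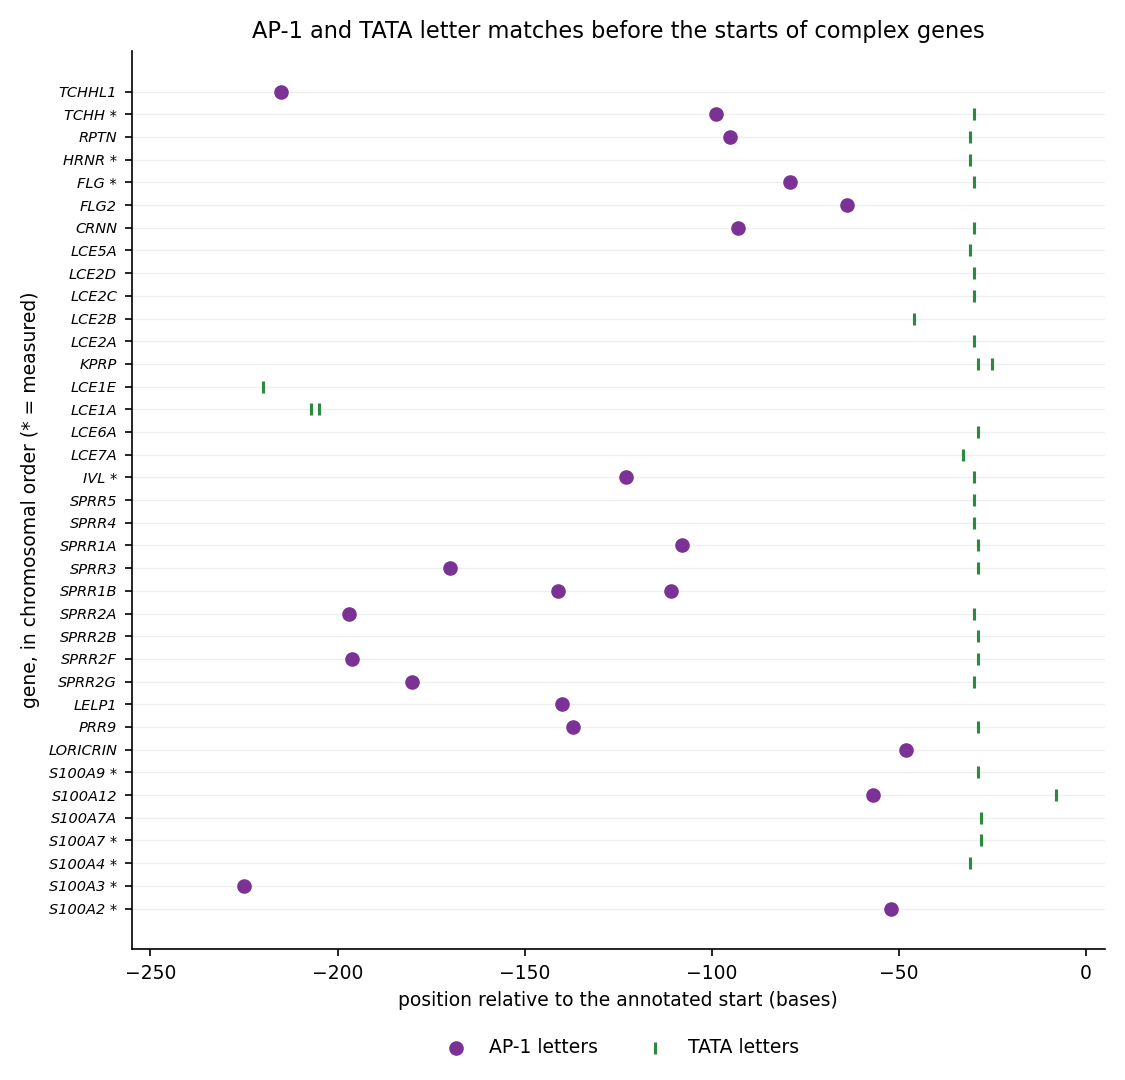
Positions of AP-1 letters (TGANTCA, circles) and TATA letters (TATAAA, bars) before the annotated start of each gene of the complex that holds either, in bases from the start, with measured genes starred. The TATA bars line up 25 to 35 bases before the start in 26 genes, while the AP-1 circles are spread over the window.

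The libraries held 20946139 (CB), 20417744 (S1650b) and 20658247 (control) counts. Counts were divided by library size and TMM factors to give CPM, and the 14619 genes that reached 1 CPM in any library are called measured. Folds are ratios of CPM with exact 95% intervals that cover counting error only, since 1 library a group gives no spread between cultures. Reads without molecular identifiers can be PCR copies, so the intervals can be too narrow even for that error. A call of higher or lower needs a 2-fold difference and an interval that leaves out 1. All 12 listed keratinocyte markers, such as KRT5, KRT14 and TP63, had at least 66 counts in each library, with summed levels of 14331 CPM in CB, 7775 in S1650b and 16094 in control. The sum is set mainly by KRT5 (49645 counts in S1650b, 137862 in control) and KRT14 (31282 and 80055). KRT17, TP63, DSG3, DSP and CDH1 had more counts in S1650b than in control, and KRT6A, KRT16, PKP1, SFN and TRIM29 had fewer. Summed fibroblast markers (8 genes) were at 30.5 CPM in CB, 13.0 in S1650b and 92.8 in control, endothelial markers (8 genes) at 32.6, 48.1 and 58.1, melanocyte markers (7 genes, with TYR, DCT and TYRP1 at 0 throughout) at 8.38, 9.59 and 10.1, and immune markers (9 genes, with CD1A and CD68 at 0 throughout) at 1.35, 1.57 and 2.38. The S1650b library also leaned towards long genes and low GC content. Its median log2 fold over control was −0.30 in the shortest of 8 equal bins by exon length and 0.49 in the longest, against −0.09 and 0.01 in CB. Of the 17 measured genes of the complex, 11 lie in the shortest bin, and all 17 have a GC content in the upper 4 of 8 bins. Many S1650b folds are therefore followed by their value with both trends removed. Those given without it still hold both trends and can move.

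The genes of the complex that were measured were S100 genes, involucrin and 3 long genes of the filaggrin family. Of the 64 genes 17 reached 1 CPM, 24 had some counts below that level, and 23 had no count in any library, where the limit set by 3 counts is 0.150 CPM in CB, 0.134 in S1650b and 0.152 in control. The measured genes are 13 of 17 S100 genes, FLG, HRNR and TCHH of the 7 genes of the filaggrin family, and IVL. None of the 19 LCE genes or 11 SPRR genes was measured, and loricrin (LORICRIN), the main protein of the mature envelope, had 0 counts in all 3 libraries, as did KPRP, PRR9, LELP1, CRCT1 and SPRR3. The complex took 0.360% of all counts in CB (exact Clopper-Pearson 95% interval 0.357 to 0.362), 0.305% in S1650b (0.303 to 0.308) and 0.369% in control (0.367 to 0.372). Summed over the complex, the fold was 0.972 (0.963 to 0.982) for CB against control and 0.723 (0.716 to 0.731) for S1650b against control. That sum is set by abundant S100 genes, since the 5 with most counts held 83.3% of it in the control. Length and GC trends, described above, were not removed from the sum. With trends removed, the S1650b folds of S100A6, S100A10 and S100A11 were 1.20, 1.21 and 1.07. Those of S100A2, S100A14 and S100A16 were 0.706, 0.722 and 0.790. The size of the S1650b drop of the sum therefore depends on these trends. Whether a drop of the sum remains with them removed was not tested.

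Per length, the order of the genes spanned more than 3 powers of 10. The deposited FPKM divide counts by gene length and by a library scaling of the authors that was not by total counts. The S1650b to control fold of S100A10 was 0.893 by FPKM (0.1 added) and 1.03 by total counts. By these FPKM, S100A6 (calcyclin) was at 997 in CB, 935 in S1650b and 1103 in control, the highest of the complex. S100A11 was at 800, 655 and 816 FPKM, and S100A14, S100A2, S100A10 and S100A16 lay between 231 and 384 in the control. IVL was at 6.99 FPKM in CB, 6.30 in S1650b and 28.4 in control. FLG was at 0.656, 1.23 and 0.998 FPKM, HRNR at 0.329, 0.728 and 0.598, and TCHH at 0.275, 1.26 and 0.354. The measured envelope genes were therefore low per length beside the abundant S100 genes in the same libraries.

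**Figure D2:**
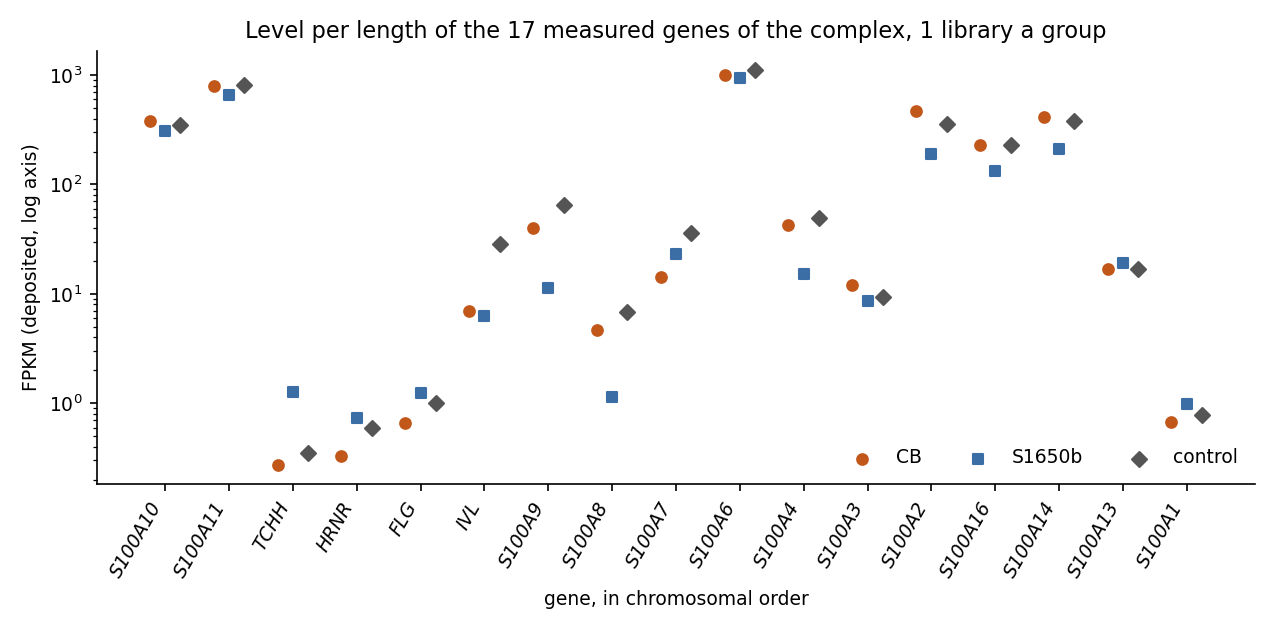
Deposited FPKM (log axis) of the 17 measured genes in CB, S1650b and control, 1 point a library, in chromosomal order. IVL lies lower in CB (6.99) and S1650b (6.30) than in control (28.4), TCHH is highest in S1650b (1.26), and S100A6 and S100A11 are the highest in all 3 libraries.

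In the CB library 2 of the 17 measured genes were lower than in the control (11.8%), IVL and S100A7, and 0 were higher, against 5.53% lower and 1.71% higher among all 14619 measured genes. With a fold of at least 1.5 as the rule, 6 were lower (35.3%) and 0 higher, against 10.5% and 4.86% of all genes. These 6 were IVL, S100A7, HRNR, S100A9, FLG and S100A8, of which S100A8 (0.700) no longer passed 1.5-fold with trends removed. With length and GC trends removed IVL and S100A7 were again the 2 called lower and 0 were higher, against 5.16% and 1.83% of all genes. The median log2 fold of the 17 genes was −0.29, with 0.00 over all measured genes.

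In the S1650b library 4 of the 17 were lower than in the control (23.5%), S100A8, S100A9, IVL and S100A4, and 1 was higher (5.88%), TCHH, against 7.86% lower and 12.1% higher among all measured genes. At 1.5-fold 8 were lower (47.1%) and 1 higher, against 19.2% and 22.1% of all genes. Of these 8, S100A2 (0.706), S100A14 (0.722), S100A7 (0.750) and S100A16 (0.790) no longer passed 1.5-fold with length and GC trends removed. The median log2 fold of the 17 was −0.31, with −0.04 over all measured genes. With length and GC trends removed the same 5 genes were called, against 7.7% lower and 6.7% higher among all genes, but the median of the 17 turned to 0.09, with −0.06 over all genes. The genes called at 2-fold therefore kept their calls while the lean of the whole complex did not keep its sign.

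**Figure D3:**
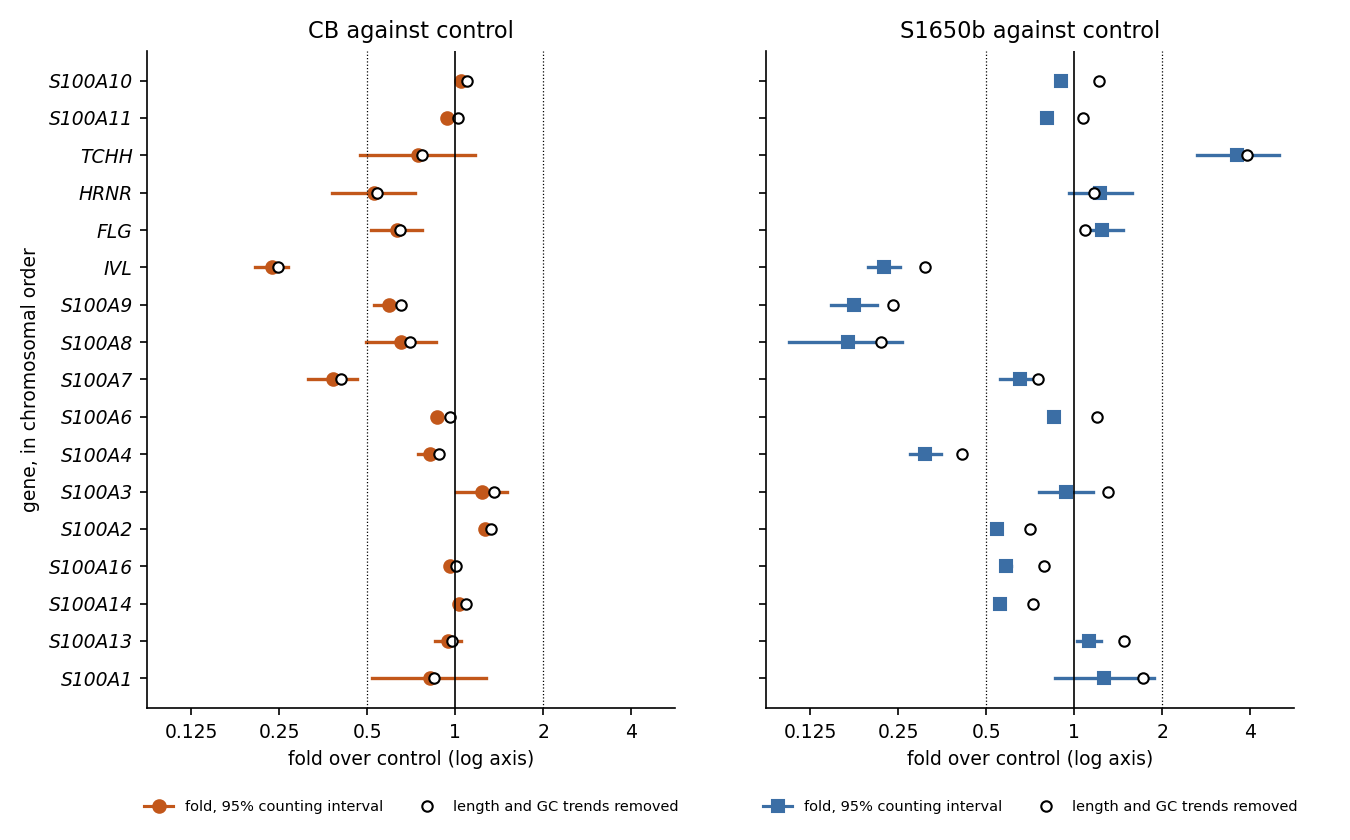
Fold over control (log axis) of the 17 measured genes in chromosomal order, for CB (left) and S1650b (right), with 95% counting intervals, open circles for folds with length and GC trends removed, and dotted lines at folds of 0.5 and 2. IVL is lower in both, S100A8 and S100A9 lie near 0.17 in S1650b, and TCHH stands at 3.6 in S1650b.

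Involucrin (IVL, ENSG00000163207, chromosome 1, 152908545 to 152911886), the early scaffold of the envelope, had 290 counts in CB, 306 in S1650b and 1213 in control. The raw counts of the particle libraries were alike and both far below the control. IVL was 4.25-fold lower in CB (3.73 to 4.84) and 4.48-fold lower in S1650b (3.95 to 5.09), or a fold of 0.308 (0.270 to 0.349) in S1650b with trends removed. The S1650b to CB fold was 0.948 (0.805 to 1.12), and it turned above 1 with scaling by total counts and with trends removed. With trends removed it was 1.27 (1.08 to 1.49), an interval that leaves out 1. IVL was the only one of the 17 genes that passed the 2-fold rule in both particle libraries. No exon of another gene overlaps it. In a bulk library fewer cells with a transcript and less RNA per cell cannot be told apart, here and for every gene that follows.

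The measured filaggrin family genes were all lower in CB than in S1650b. Filaggrin (FLG, ENSG00000143631, chromosome 1, 152302175 to 152325203) had 161 counts in CB, 353 in S1650b and 252 in control. Its fold over control was 0.629 in CB (0.513 to 0.770) and 1.24 in S1650b (1.05 to 1.46), and with trends removed the S1650b interval spanned 1 (1.09, 0.926 to 1.29). Hornerin (HRNR, ENSG00000197915, 152212082 to 152224193), a filaggrin-like repeat protein, had 61 counts in CB, 158 in S1650b and 114 in control. Its fold was 0.527 in CB (0.380 to 0.726) and 1.23 in S1650b (0.958 to 1.58). FLG and HRNR were thus lowest in CB, and in S1650b neither differed from the control by 2-fold.

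Trichohyalin (TCHH, ENSG00000159450, 152106317 to 152115454), which hardens the inner root sheath of the hair follicle and is crosslinked to keratins, had 37 counts in CB, 199 in S1650b and 49 in control. It was 3.6-fold higher in S1650b (2.62 to 5.02), and 3.90-fold with trends removed (2.84 to 5.45). In CB its fold was 0.744 with an interval that spans 1 (0.472 to 1.16). TCHH was the only measured gene of the complex called higher than the control in a particle library. Between the particles, S1650b against CB gave folds of 4.83 for TCHH (3.39 to 7.06), 2.33 for HRNR (1.72 to 3.18) and 1.97 for FLG (1.63 to 2.39), or 5.26, 2.23 and 1.74 with trends removed.

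The other filaggrin family genes were near the limit of detection. FLG2 had 2 counts in CB, 5 in S1650b and 2 in control, TCHHL1 had 1, 5 and 3, CRNN (cornulin) had 1, 0 and 5, and RPTN (repetin) had 0, 1 and 0. Summed over all 7 genes the family had 263 counts in CB, 721 in S1650b and 425 in control. The summed fold over control was 0.610 in CB (0.521 to 0.713) and 1.5 in S1650b (1.33 to 1.7). FLG, HRNR and TCHH are between 6995 and 12747 bases of exon, where genes of all kinds had higher S1650b folds than short genes. FLG-AS1, an antisense transcript whose exons overlap 5.52% of FLG, had 51 counts in CB, 116 in S1650b and 67 in control, and the sources used here do not state whether counting used the strand.

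**Figure D4:**
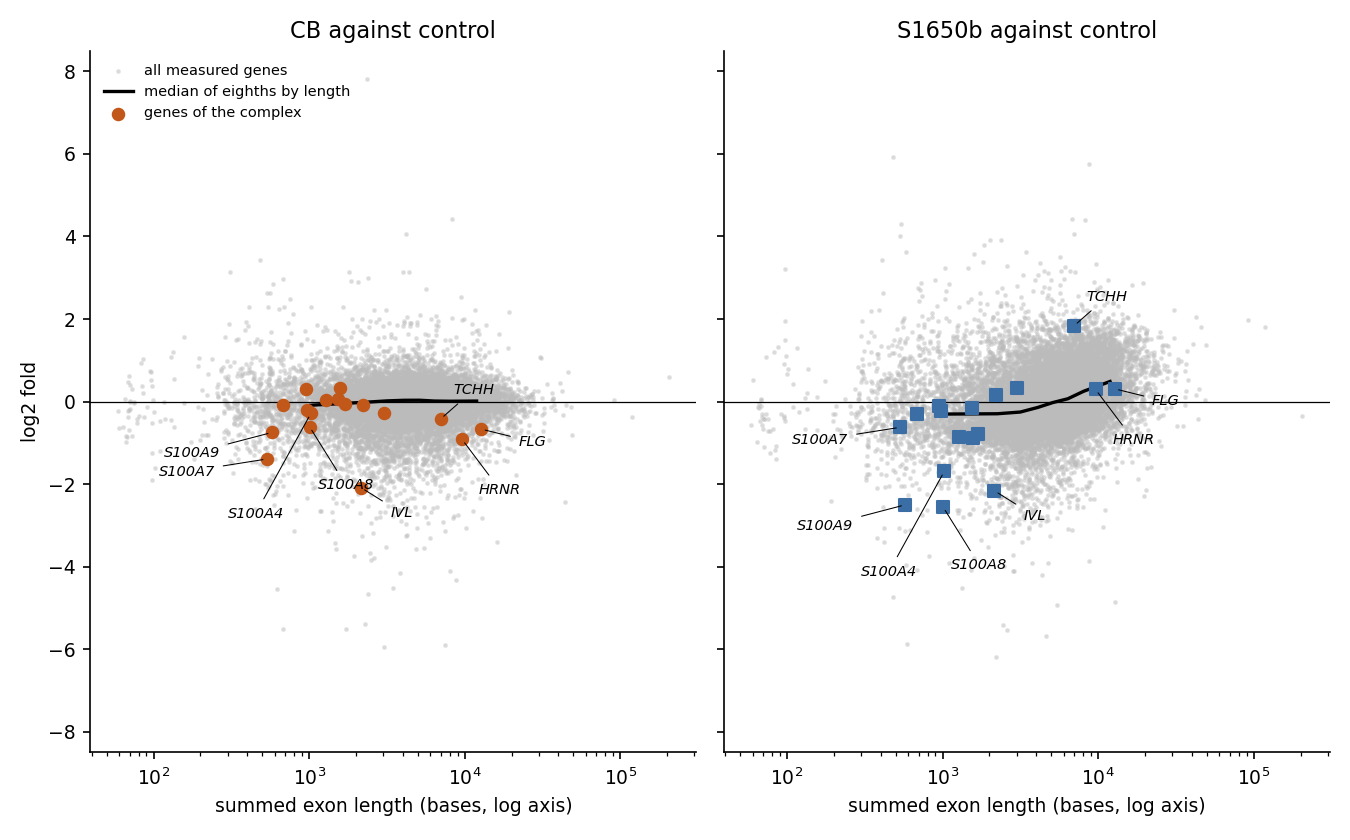
Log2 fold over control against summed exon length (bases, log axis) for CB (left) and S1650b (right), with all measured genes in grey, the 17 genes of the complex in colour and the medians of 8 length bins as a line. The line is near flat in CB and climbs to 0.49 in S1650b, where TCHH lies above it, FLG and HRNR lie close to it, and IVL, S100A8, S100A9 and S100A4 lie below it.

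S100A8 and S100A9, the subunits of the secreted heterodimer calprotectin, were both lowest in S1650b. S100A9 (ENSG00000163220, 153357854 to 153361027) had 449 counts in CB, 148 in S1650b and 743 in control, and was 5.67-fold lower in S1650b (4.75 to 6.81). S100A8 (ENSG00000143546, 153390032 to 153391188) had 91 counts in CB, 26 in S1650b and 137 in control, and was 5.95-fold lower in S1650b (3.89 to 9.43). In CB the folds were 0.595 for S100A9 (0.528 to 0.670) and 0.654 for S100A8 (0.496 to 0.859), short of the 2-fold rule. Both genes thus ran in the order control, CB, S1650b from highest to lowest. With trends removed the S1650b folds were 0.239 for S100A9 and 0.218 for S100A8. The ratio of S100A8 to S100A9 counts was 0.203 in CB (0.160 to 0.254), 0.176 in S1650b (0.111 to 0.268) and 0.184 in control (0.153 to 0.222), so the intervals of the ratio overlap in all 3 libraries. Myeloid cells make both proteins in quantity, and of 9 immune markers 3 had a count in CB, 5 in S1650b and 5 in control, with sums of 1.35, 1.57 and 2.38 CPM and at most 1 gene at 1 CPM. Their part in the S100A8 and S100A9 levels was not tested.

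S100A7 (psoriasin, ENSG00000143556, 153457744 to 153460701), an antibacterial protein of keratinocytes, had 148 counts in CB, 281 in S1650b and 383 in control. It was 2.63-fold lower in CB (2.17 to 3.20), while in S1650b its fold was 0.650 (0.555 to 0.760), or 0.750 (0.641 to 0.877) with trends removed. S100A7 therefore ran in another order than its neighbours S100A8 and S100A9, with CB lowest, and its S1650b to CB fold was 1.71 (1.39 to 2.10), against 0.296 for S100A9 (0.244 to 0.357) and 0.257 for S100A8 (0.159 to 0.401). Of the 50-base words of its transcript, 15.6% also occur in transcripts of another gene, most of them in S100A7A, which had 13, 5 and 9 counts in CB, S1650b and control, so a few reads could belong to either. S100A12, a further alarm protein, had 1 count in CB, 0 in S1650b and 4 in control.

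S100A4 (ENSG00000196154, 153543613 to 153550136), a protein of motile cells that binds myosin, had 842 counts in CB, 354 in S1650b and 1013 in control. It was 3.23-fold lower in S1650b (2.86 to 3.66), or a fold of 0.412 with trends removed, and its CB fold was 0.819 (0.747 to 0.898). S100A4 is also abundant in fibroblasts, and of 8 fibroblast markers 8 had a count in CB, 7 in S1650b and 4 in control, with sums of 30.5, 13.0 and 92.8 CPM. DCN had 153 counts in CB, 41 in S1650b and 1067 in control and COL3A1 had 339, 83 and 638, while COL1A2, PDGFRA, PDGFRB and THY1 were at 0 in control. Their part in the S100A4 level was not tested. S100A3, a protein of the hair cuticle whose gene lies within the span of S100A4, had 221 counts in CB, 187 in S1650b and 177 in control, so it did not share the low S1650b value. Its S1650b fold over control was 0.935 (0.757 to 1.16), and it turned above 1 with scaling by total counts and with trends removed.

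A run of 3 abundant S100 genes near the far end of the complex was lower in S1650b without passing the 2-fold rule, except S100A2 under upper quartile scaling (0.498). S100A2, a keratinocyte S100 gene known as a target of p53 family factors, had 14109 counts in CB, 6734 in S1650b and 10993 in control. S100A14 had 10150, 6104 and 9726 counts, and S100A16 had 7558, 5135 and 7770. In S1650b the folds over control were 0.542 for S100A2 (0.526 to 0.559), 0.556 for S100A14 (0.538 to 0.574) and 0.585 for S100A16 (0.565 to 0.606). With trends removed they were 0.706, 0.722 and 0.790, still below 1. In CB the folds were 1.26 for S100A2 (1.23 to 1.30), 1.03 for S100A14 (1.00 to 1.06) and 0.958 for S100A16 (0.928 to 0.989), the S100A16 value turning above 1 with deposited FPKM and with trends removed. The S1650b to CB fold of S100A2 was 0.429 (0.417 to 0.442), a 2-fold call that is lost with trends removed (0.554). Next to them, S100A13, which helps to export FGF1, had 716 counts in CB, 949 in S1650b and 749 in control, and S100A1 had 39, 67 and 47, and neither passed the 2-fold rule against the control. Their S1650b folds over control were 1.12 for S100A13 (1.02 to 1.24) and 1.26 for S100A1 (0.856 to 1.87). With trends removed these were 1.48 (1.34 to 1.63) and 1.72 (1.16 to 2.55). S100A13 and S100A1 overlap on opposite strands, with 33.5% and 18.3% of their exon bases inside exons of other genes, so their reads cannot be fully told apart.

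S100A6, S100A10 and S100A11, all abundant, lay close to the control in both particle libraries. S100A6 had 18656 counts in CB, 20462 in S1650b and 21221 in control, and folds over control of 0.866 in CB and 0.854 in S1650b. S100A11 had 10480, 10035 and 10998 counts, with folds of 0.939 and 0.808, the first of which was 1.02 with trends removed. S100A10, which forms a tetramer with annexin A2, had 11236 counts in CB, 10781 in S1650b and 10614 in control, with folds of 1.04 and 0.899. The S1650b folds of these 3 genes turned above 1 with trends removed (1.20, 1.07 and 1.21), so their direction is not settled. ANXA2, which encodes annexin A2, had folds over control of 1.08 in CB and 0.830 in S1650b.

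Of the 47 genes under 1 CPM, 17 had 1 to 9 counts over the 3 libraries and 7 had 10 or more. Summed, they had 58 counts in CB, 55 in S1650b and 104 in control, with folds over control of 0.549 in CB (0.391 to 0.765) and 0.468 in S1650b (0.331 to 0.655). PGLYRP4 and PGLYRP3, which encode peptidoglycan recognition proteins that kill bacteria, together had 2 counts in CB, 10 in S1650b and 34 in control. PGLYRP4 had 0 counts in CB, 6 in S1650b and 19 in control, 6.43-fold lower in CB with that library set at 3 counts and at least 4.74-fold lower by the end of its counting interval, and 3.58-fold lower in S1650b (1.37 to 10.9). PGLYRP3 had 2, 4 and 15 counts, 7.61-fold lower in CB (1.77 to 68.6) and 4.24-fold lower in S1650b (1.35 to 17.5). Both were thus highest in the control, on few counts. Without these 2 genes, a split chosen after seeing the data, the others under 1 CPM summed to 56 counts in CB, 45 in S1650b and 70 in control, with folds over control of 0.788 in CB (0.545 to 1.14) and 0.569 in S1650b (0.382 to 0.839).

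The SPRR genes summed to 14 counts in CB, 17 in S1650b and 22 in control, and both intervals against control spanned 1. SPRR1A had 1 count in CB, 6 in S1650b and 10 in control, SPRR2A had 3, 8 and 1, and SPRR4 had 7, 2 and 7. Of the transcript words of SPRR2A, 32.7% occur in other genes, chiefly its copies. The LCE genes summed to 4 counts in CB, 1 in S1650b and 10 in control, with a CB fold of 0.394 (0.0902 to 1.37) and an S1650b fold of 0.0885 (0.00204 to 0.622). S100A5 had 20, 10 and 12 counts. Among the SPRR and LCE genes, SPRR1A in CB was the only gene whose interval against the control left out 1 (fold of 0.0985, 0.00227 to 0.693). For the others, counts this low cannot show whether there was a difference.

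**Figure D5:**
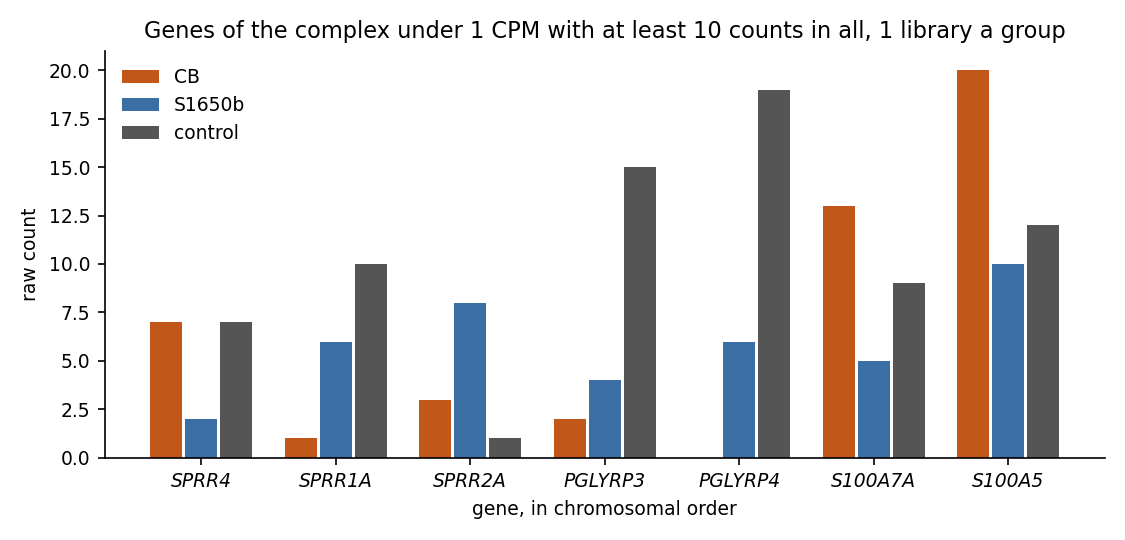
Raw counts in CB, S1650b and control of the 7 genes of the complex under 1 CPM with at least 10 counts in all, 1 bar a library. PGLYRP3 and PGLYRP4 are highest in the control (15 and 19 counts), while S100A5 is highest in CB (20).

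Between the particles, S1650b against CB, 2 of the 17 genes were higher (11.8%), TCHH and HRNR, and 4 were lower (23.5%), S100A8, S100A9, S100A4 and S100A2, against 15.8% higher and 9.54% lower among all measured genes. The median log2 fold of the 17 was −0.21, with 0.01 over all genes, and it turned to 0.19 with trends removed. With trends removed 3 genes were higher, S100A1 being added (2.06-fold), and 3 were lower, S100A2 being lost, against 11.8% and 8.65% of all genes. All 3 long filaggrin family genes lay above 1 in this comparison and 9 of the 13 measured S100 genes lay below it, with intervals that leave out 1. Such intervals were common, since 5569 of all 14619 measured genes had one above 1 and 5605 had one below it. Of the 9 S100 genes, S100A10 and S100A11 turned above 1 with trends removed. The S100A3 interval then spanned 1 (0.998, 0.817 to 1.22). The comparison uses different doses by weight, 50 µg/mL for S1650b and 25 µg/mL for CB.

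Genes that act with the complex were read from lists of other cornification genes, of transcription factors and of S100 partners. Of 40 cornification partners 21 were measured, of which 3 were lower (14.3%) and 0 higher in CB, against 5.53% and 1.71% of all measured genes. In S1650b 7 were lower (33.3%) and 1 was higher (4.76%), against 7.86% and 12.1% of all measured genes. The 2 comparisons had median log2 folds of −0.06 and −0.57, where all measured genes had 0.00 and −0.04. With trends removed 3 were lower in CB and 8 in S1650b (38.1%, against 7.7% of all genes), and 0 were higher in either. TGM1, the transglutaminase that crosslinks involucrin, had 216 counts in CB, 117 in S1650b and 529 in control and, like IVL, was lower in both. KRT1, the partner of KRT10 in suprabasal cells, had 5, 5 and 77 counts, whereas KRT10 had 1158, 940 and 1019. PI3, an elastase inhibitor crosslinked into the envelope, was 8.94-fold lower in S1650b (23 counts against 182), and KRT9, a keratin of palms and soles, was 2.71-fold lower (201 counts against 483). ABCA12, the lipid transporter of lamellar granules, went opposite ways, with 13 counts in CB, 85 in S1650b and 29 in control, and folds of 0.442 in CB and 2.6 in S1650b. With trends removed ABCA12 no longer passed the rule in S1650b (1.7).

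Of 34 transcription factors with a known role at the complex or in keratinocyte differentiation, 31 were measured, with 4 higher and 4 lower in CB (12.9% each, against 1.71% higher and 5.53% lower among all measured genes). In S1650b 4 were higher and 4 lower (12.9% each), where the share of all genes was 12.1% higher, near that of the list, and 7.86% lower. With trends removed the S1650b counts were 5 higher (16.1%) and 2 lower (6.45%), against 6.7% and 7.7% of all genes. The lower genes in CB included POU2F3, an epidermal POU factor, at 14 counts in CB, 71 in S1650b and 84 in control (6.09-fold lower in CB, 3.44 to 11.6). GATA3, which drives epidermal lipid and barrier genes, had 589, 1217 and 2219 counts, 3.82-fold lower in CB and 2.06-fold lower in S1650b. ELF3, an epithelial ETS factor that acts late in differentiation, had 2134, 3373 and 6352 counts, 3.02-fold lower in CB and 2.13-fold lower in S1650b. The S1650b calls of GATA3 and ELF3 were lost with trends removed (folds of 0.607 and 0.505). GRHL3, which controls envelope genes such as TGM1, was 3.14-fold lower in S1650b (76 counts against 211). MAF, a differentiation factor of the upper epidermis, had 4 counts in CB, 65 in S1650b and 3 in control, a ratio of 19.2 in S1650b (6.28 to 95.4). Subunits of AP-1 were the higher genes in CB (FOSL1, FOSB, JUN and FOS), and FOSB, JUN and FOS were higher in S1650b as well.

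Genes of the complex with AP-1 letters before the start did not share a direction. Of the 5 measured ones, the CB folds were 0.236 for IVL, 0.629 for FLG, 0.744 for TCHH, 1.23 for S100A3 and 1.26 for S100A2. Their S1650b folds were 0.223, 1.24, 3.6, 0.935 and 0.542 in the same order of genes. Of these 5 genes, IVL and TCHH were called against the control in a particle library, as were 4 of the 12 measured genes without the letters (S100A8, S100A9, S100A7 and S100A4). Among all measured genes 1.71% were called higher and 5.53% lower in CB, and 12.1% and 7.86% in S1650b. These few genes allow no comparison of the 2 sets, and whether AP-1 acts on them was not tested. Of 12 listed receptors and partners of S100 proteins, with retinoid and vitamin D receptors, 10 were measured, 0 were called in CB, and TLR4, a receptor for calprotectin, was the 1 called in S1650b (139 counts against 46, 2.68-fold higher, 1.46-fold with trends removed). That is 1 of 10, where 12.1% of all measured genes were higher, and 0 of the 10 were called with trends removed.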

How the data were processed

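RNA was sequenced from 3 HaCaT cultures, 1 library a group, with groups taken from the treatment label of each sample. Per the labels, total RNA was isolated by Trizol and the NEBNext Ultra RNA kit gave the libraries. The deposited count table holds whole-number counts per Ensembl gene, and the deposited FPKM table holds FPKM values made by the authors. CASAVA 1.7 and the mouse builds mm8 and mm9 are listed in the submitters' processing notes, although all gene identifiers are human. The sources used here do not give an aligner, a counter, the use of strand or a human build.

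All 58735 identifiers occur in GENCODE 29, from which GRCh38 positions, exon lengths and gene types were taken, and promoters came from RefSeq (GRCh38.p14). RefSeq promoters matched 58 of the 64 genes by symbol. Counts were scaled with TMM factors (edgeR 4.0.16, R 4.3.3, control as the reference library) of 0.957 (CB), 1.09 (S1650b) and 0.956 (control). Genes with 1 CPM in at least 1 library were kept. Folds have exact conditional binomial (Clopper-Pearson) 95% intervals, 0.5 counts were added before log2, and a count of 0 was set to 3 for a bound. Trends with exon length and the GC content of the longest transcript, known for 14613 genes, were removed together by lowess (span 30%, statsmodels 0.14.6, Python 3.11.15). Shared sequence was read as 50-base words found in transcripts of other genes.

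Measured genes of the complex are all named. Genes under 1 CPM are named where they had 10 counts in all, and others among them were chosen after their values were seen. Of the gene lists, up to 4 genes a comparison past the 2-fold rule were named, in part, with TGM1, KRT1 and KRT10, while ANXA2, FOS and the non-coding neighbours were chosen after their values were seen. The members, lists and rules were chosen with earlier results of these data known. The steps were tested on simulated data. Alternatives were other scalings (total counts, DESeq2 1.42.0 median of ratios, upper quartile), deposited FPKM with 0.1 added, other filters, fold limits of 1.5 and 3, 5 counts added before log2, and trend removal.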

Additional observations from a re-analysis of the deposited data

Results flagged for a closer look

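Genes of the complex whose fold lay above 1 with one particle and below 1 with the other, with both intervals excluding 1, are FLG, S100A2 and S100A10. Each rests on 1 library a group that shares the control, and the difference was not tested. FLG had a fold over control of 0.629 in CB and 1.24 in S1650b, with S1650b at 1.97 times CB (1.63 to 2.39). After removal of length and GC trends the FLG values were 0.649 in CB and 1.09 in S1650b, and the S1650b interval then spans 1 (0.926 to 1.29). S100A2 had a fold of 1.26 in CB and 0.542 in S1650b, and 1.32 and 0.706 with trends removed, so its opposite directions are the ones that remain. S100A10 had a fold of 1.04 in CB and 0.899 in S1650b, and the S1650b value turned above 1 with scaling by total counts and with trends removed (1.21).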

How the results depend on the processing

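No paired analysis was possible because each group holds 1 library. Against the control, the genes called lower numbered 2 in CB and 4 in S1650b, and these counts moved to 5 and 7 with no filter on low counts and to 6 and 8 at a fold of 1.5, and the S1650b count to 5 with upper quartile (S100A2 added). At a fold of 3 the CB count was 1. For S1650b against CB, the 2 higher genes became 1 with deposited FPKM, 3 with total counts (FLG added, 2.25), no filter or trends removed, 5 at a fold of 1.5 and 1 at a fold of 3. The 4 lower became 6 at a fold of 1.5, 2 at a fold of 3 and 3 with trends removed. The median log2 fold for S1650b against control (−0.31) was −0.12 with scaling by total counts, −0.43 with upper quartile, −0.85 with no filter, −0.46 with a filter of 5 CPM and 0.094 after trend removal. The median for S1650b against CB (−0.21) was −0.023 with total counts, −0.28 with median of ratios, −0.32 with upper quartile, −0.29 with deposited FPKM, −0.15 with no filter and 0.19 with trends removed. The cause was not tested. Total counts moved the median of all genes to 0.15 in S1650b against control (−0.04 as reported) and 0.21 in S1650b against CB (0.01 as reported), and upper quartile moved the S1650b to control median to −0.17. With protein-coding nuclear genes as the denominator, the complex took 0.383% in CB, 0.334% in S1650b and 0.398% in control. No 2-fold call of a named gene of the complex turned its direction under the scalings, deposited FPKM or trend removal. Depth limits the LCE, SPRR and PGLYRP genes, with at most 19 counts each in any library, and 1 library a group leaves the spread between cultures unknown.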

Other observations

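Of 4 non-coding genes in the region with at least 20 counts in all, looked at after the coding genes, 1 was called against the control. Among all measured genes 12.1% were called higher and 7.86% lower in S1650b, and 1.71% and 5.53% in CB, so 1 of 4 says little about the region. AL450992.1, an antisense gene that runs from beside S100A10 into the span of S100A11 (chromosome 1, 151994531 to 152042774), had 9 counts in CB, 61 in S1650b and 6 in control, a fold over control of 9.0 in S1650b (3.91 to 25.5) and 8.56 with length and GC trends removed. In CB its interval spanned 1 (0.470 to 5.05). None of its exons overlaps those of S100A10 or S100A11, both close to the control in either particle library, but some overlap the pseudogene NBPF18P of a multicopy family, so the reads may be shared with its copies. FLG-AS1 had a fold of 1.53 in S1650b (1.13 to 2.10) and 0.750 in CB (0.511 to 1.10), and its S1650b value was 1.09 with trends removed (0.799 to 1.49). BX470102.1, antisense to S100A6, had 15 counts in CB, 14 in S1650b and 23 in control, and BX470102.2 had 42, 62 and 41, with intervals against the control that spanned 1 for both genes and both particles.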
